A study of Mus musculus with 564 samples.

Results

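Losmapimod, PH797804, Talmapimod and VX702 are clinical kinase inhibitors directed at the p38 mitogen-activated protein kinase (MAPK) pathway. Losmapimod is a nicotinamide derivative and Talmapimod an indole carboxamide. In the study their intended targets, the kinases for which each dose was chosen, were MAPKAPK2 for Losmapimod, MAPK11 and MAPK14 for PH797804, MAPK14 for Talmapimod, and MAPK11 and MAPKAPK2 for VX702. Members were the libraries whose column name began with 1 of these 4 names: 35 of 564 libraries, with 8 for Losmapimod, 9 for PH797804, 8 for Talmapimod and 10 for VX702.

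The assay was chromatin immunoprecipitation and sequencing of acetylated histone H3 (H3K27ac), which marks promoters and enhancers in use. Wild-type bone marrow-derived macrophages (BMDMs) of male C57/BL6 mice aged 6 to 8 weeks received DMSO or 1 of 58 kinase inhibitors for 1 h. They were then left unstimulated (UT) or given lipopolysaccharide (LPS) or interleukin 4 (IL-4), both at 10 ng/ml, for 30 min, 1 h, 2 h or 4 h. The comparison groups were 18 DMSO libraries and 511 libraries of the 54 other inhibitors, which carried the same stimuli and times. BMDMs are cultured cells grown out from marrow, so they model a macrophage outside its tissue. Every inhibitor was used at its own dose, set by its binding to the intended target, so the 4 are given side by side and were not tested against each other.

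Most p38 conditions held 1 library. The 1 h LPS condition of VX702 and the UT condition of Losmapimod held 2, Losmapimod had none at 2 h after either stimulus, and Talmapimod had none at 4 h after IL-4. DMSO had 2 libraries in each condition. The labels do not say whether libraries came from separate cultures or animals. The p-values for single inhibitors measure the spread of libraries around a fit of time and compound. That spread is pooled over all 59 compounds, DMSO included, and may be technical. The p-values for the p38 inhibitors as a class measure the spread between inhibitors, with 1 value for each.

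p38α (Mapk14) and its relatives are switched on within minutes of Toll-like receptor 4 engagement by LPS, through the upstream kinases MKK3 and MKK6. A first branch runs through the kinase MK2 (Mapkapk2), which inactivates the mRNA-destabilising protein tristetraprolin (Zfp36) and so prolongs the life of cytokine mRNAs such as Tnf and Il6. Another branch runs through the nuclear kinases MSK1 and MSK2, which phosphorylate CREB, ATF1 and histone H3 and drive early feedback genes such as Nr4a1, Dusp1, Fos, Il10 and Il1rn. The phosphatase encoded by Dusp1 in turn shuts p38 off. IL-4 signals mainly through JAK kinases and STAT6, which turn on Arg1, Socs1, Cish and Ccl24.

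The promoters of 3 genes of the MSK branch are shown first because they carry the DNA element that CREB and ATF1 bind. Each sequence is the 250 bases before the transcription start in RefSeq, build GRCm38.p6 (the same chromosomes as mm10), written 5′ to 3′ along the gene. Capitals mark TGACG, the core of the cAMP response element, or CGTCA, the same core on the other strand. Nr4a1 (nuclear receptor NUR77) at chr15:101266596-101266845 held 4 such cores, and Fos (AP-1 subunit) at chr12:85473640-85473889 held 2. Dusp1 (p38 phosphatase) at chr17:26508473-26508722, on the minus strand, held 3, a pair of which form the full palindrome TGACGTCA.
Nr4a1: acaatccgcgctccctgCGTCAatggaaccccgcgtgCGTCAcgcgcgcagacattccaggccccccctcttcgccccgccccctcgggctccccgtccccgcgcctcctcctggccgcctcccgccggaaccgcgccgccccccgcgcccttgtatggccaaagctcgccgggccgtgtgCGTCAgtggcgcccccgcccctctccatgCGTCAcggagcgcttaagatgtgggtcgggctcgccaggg
Dusp1: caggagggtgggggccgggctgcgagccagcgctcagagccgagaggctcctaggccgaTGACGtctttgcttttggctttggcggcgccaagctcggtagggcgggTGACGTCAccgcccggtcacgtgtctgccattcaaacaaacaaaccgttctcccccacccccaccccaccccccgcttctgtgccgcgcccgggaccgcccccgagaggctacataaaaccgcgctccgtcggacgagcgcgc
Fos: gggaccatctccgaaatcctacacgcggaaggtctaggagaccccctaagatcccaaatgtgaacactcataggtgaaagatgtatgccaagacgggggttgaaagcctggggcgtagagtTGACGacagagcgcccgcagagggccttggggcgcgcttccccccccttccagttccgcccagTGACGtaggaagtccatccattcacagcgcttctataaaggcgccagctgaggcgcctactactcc
Over all 32544 RefSeq promoters of this length, 17.8% held TGACG and 1.55% held TGACGTCA on either strand. The AP-1 motif TGANTCA lay in 6.73% of them and in none of the 3 shown.

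The table gives 59190 cis-regulatory elements (CREs), regions around open-chromatin peaks with a median width of 1652 bases. Its values are the authors' read counts after their own scaling, in whole numbers, called scaled read counts here. Differences below are in log2(scaled count + 5) from limma, with Benjamini-Hochberg adjustment over all CREs tested, and are given ± 1 standard error. CREs differ in width, and the values were not corrected for it. Levels of single CREs were therefore not compared with each other, and groups of weak and strong CREs rest on uncorrected values. A gene is named by its promoter CRE, the CRE that overlaps the 1 kb around its start, or, for other CREs, by the nearest gene start, which need not be the gene the CRE acts on.

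The p38 libraries differed in quality before any gene was considered. Estimated reads in CREs, from the spacing of the scaled values, had medians of 1.68e+06 for Losmapimod, 1.54e+06 for PH797804, 1.39e+06 for Talmapimod and 5.02e+06 for VX702, against 4.33e+06 for DMSO and 1.91e+06 for the other inhibitors. The 30 min LPS library of PH797804 held 1.73e+05, and 12451 of its CREs were at 0. Contrast, the ratio of median values between the top and bottom 10% of CREs, was 53.0 to 134 in DMSO, 3.34 to 67.2 in the other inhibitors and 3.37 to 56.7 in the p38 libraries. Of the p38 libraries, 8 had a contrast under 7.5: PH797804 at 30 min (6.88), 2 h (4.81) and 4 h (3.37) of LPS and at 1 h of IL-4 (7.26), both VX702 libraries at 1 h of LPS (6.1 and 5.4), Losmapimod at 4 h of LPS (4.37) and Talmapimod UT (7.02). Results that rest on them are given with and without them, a choice made after the data were seen. The 10 macrophage markers, among them Csf1r, Adgre1 and Cd68, all had a promoter CRE, with summed counts of 2661 to 9834 in p38 libraries, 3535 to 9711 in other inhibitors and 6734 to 9489 in DMSO. Of the markers of other cells, 1 of 8 for T and B cells, 3 of 7 for neutrophils and progenitors, 2 of 4 for dendritic cells and 2 of 6 for fibroblasts and epithelium had one, with p38 medians of 72, 207, 190 and 33.

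**Figure D1:**
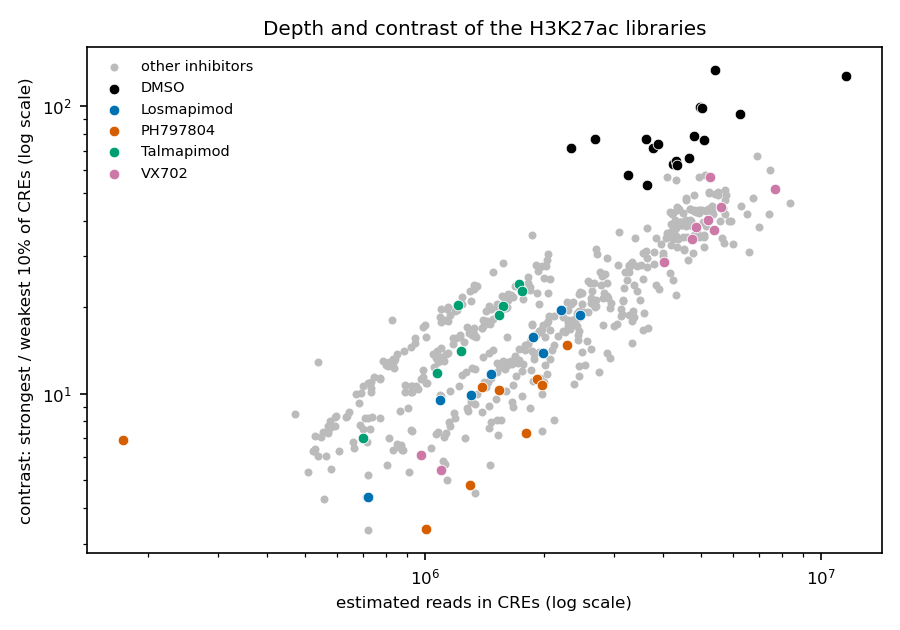
Estimated reads in CREs (x axis) against contrast (y axis), both on log scales, 1 point per library with an estimate. The DMSO libraries lie toward the top (contrast 53.0 to 134), VX702 mostly at the right, and the PH797804 library with 1.73e+05 reads stands alone at the left.

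The inhibitor columns fall into 6 successive blocks that share no compound, called runs here; the sources used here do not say what they stand for. Talmapimod stood in run 2, PH797804 and VX702 in run 4 and Losmapimod in run 6, while DMSO stood outside all of them. Run 4 had a median contrast of 35.4 in its other inhibitors, against 17.8 in run 2 and 13.1 in run 6. For that reason each inhibitor is compared with the other inhibitors of its own run as well as with DMSO.

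Nr4a1 (promoter CRE chr15:101265221-101267552) was below DMSO in all 4 inhibitors at 30 min of LPS. DMSO gave 315 and 427 scaled counts, against 235 for Losmapimod, 118 for PH797804, 191 for Talmapimod and 259 for VX702. The PH797804 library is the one of 1.73e+05 reads, where 1 read is worth 23.5 scaled counts. Its scaled total was 4.07e+06, against a median of 6.78e+06 over the p38 libraries. The other inhibitors ranged from 127 to 483 with a median of 314.5, and medians within runs 2, 4 and 6 were 257, 310.5 and 346. So each p38 inhibitor also lay below the median of its run, though Losmapimod, Talmapimod and VX702 stayed within the range of the others. The p38 inhibitors as a class, tested over compounds with run as a term, differed at 30 min by -0.55 ± 0.17 on the log2 scale (limma), with an adjusted p of 0.0682 that missed the threshold of 0.05. Over all CREs the class difference at 30 min had a median of -0.17, and of -0.003 without that PH797804 library. At 1 h the groups overlapped: DMSO gave 172 and 155, and the p38 libraries 148, 144, 138, 118 and 187.

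PH797804 stood apart at Dusp1 (CRE chr17:26502262-26510438). At 30 min of LPS DMSO gave 1607 and 1799, VX702 1607, Talmapimod 1439, Losmapimod 1196 and PH797804 776, with run medians of 1666 for VX702 and PH797804, 1213.5 for Talmapimod and 1221.5 for Losmapimod. PH797804 differed from its run after LPS by -0.87 ± 0.13 (adjusted p = 4.41e-09), and -0.06 after quantile normalization (adjusted p = 0.635), which forces every library to 1 distribution. Without its 3 low-contrast LPS libraries it was -0.60 ± 0.23, from the 1 h library alone, which is too little to judge the call. The class difference at Dusp1 was -0.30 ± 0.10 (adjusted p = 0.0913).

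Fos was strongly marked before stimulation, at 580 and 638 in DMSO and 461 to 652 in p38 libraries. At 30 min of LPS it stood at 470 and 478 in DMSO, 429 in Losmapimod, 329 in PH797804, 225 in Talmapimod and 585 in VX702. Talmapimod was the lowest of the 4, inside the 192 to 731 of the other inhibitors and under its run median of 352. Neither Fos nor any other member of the 18 MSK and CREB target genes tested passed the threshold as a class over the LPS times. At 30 min alone 1 of the 18 did, where 2.19% of all CREs were called: the clock gene Per1, at 353 in PH797804, 424 in Talmapimod, 772 in Losmapimod and 1038 in VX702, against 792 and 937 in DMSO (class difference -0.57 ± 0.16, adjusted p = 0.0457). PH797804 and Talmapimod lay below all other inhibitors (524 to 1258) and VX702 above DMSO. Without the 30 min library of PH797804, the only one of low contrast at that time, the call at Per1 was lost and 0 CREs were called. The list's median at 30 min was -0.32, against -0.17 over all CREs tested.

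Il10, the anti-inflammatory cytokine, and Il1rn, the interleukin 1 receptor antagonist, are textbook MSK targets. Il10 (promoter CRE chr1:131018841-131022520) stood at 24, 205, 233 and 259 in PH797804 at 30 min, 1 h, 2 h and 4 h of LPS. Each value was below those of the 8 or 9 libraries of the other inhibitors of its run at that time. In that 30 min library 1 read is worth 23.5 scaled counts, so the value of 24 stands at the level of 1 read. DMSO ranged from 343 to 543 over the same times. Losmapimod fell from 399 at 30 min to 236 at 1 h and 185 at 4 h, the last below all 9 run mates (lowest 269). Talmapimod stayed between 367 and 450, and VX702 between 343 and 774, both reaching over their run medians at 30 min.

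PH797804 differed from its run at Il10 by -1.80 ± 0.19 (adjusted p = 1.92e-14) and -1.35 after quantile normalization (adjusted p = 1.9e-10). Without its 3 low-contrast LPS libraries, the remaining 1 h library gave -1.06 ± 0.32 with adjusted p = 0.377. As a class the 4 differed by -0.47 ± 0.13 at Il10 (adjusted p = 0.076), and by -0.34 ± 0.12 at Il1rn (adjusted p = 0.101).

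Il1rn climbed in DMSO from 584 and 681 at 30 min to 1287 and 1121 at 4 h. PH797804 reached 404 at 4 h, Losmapimod 419, Talmapimod 496 and VX702 975, while the other inhibitors ranged from 380 to 1021. At 1 h both VX702 libraries, at 388 and 367, fell below its values at the times on either side (633 and 853). These are the 2 low-contrast libraries of VX702.

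**Figure D2:**
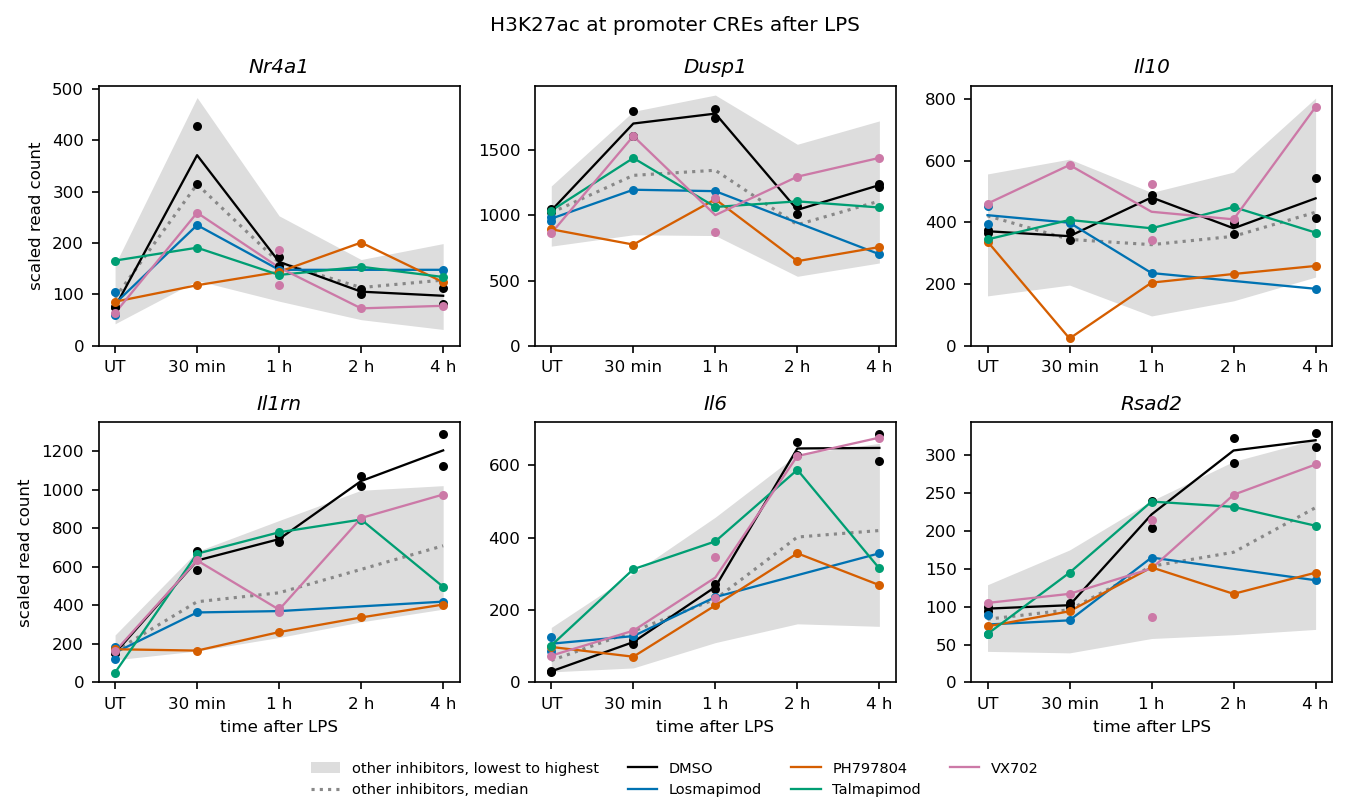
Scaled read counts at 6 promoter CREs in unstimulated cells and over the LPS time course. Points are libraries, coloured lines join condition means (Losmapimod has no 2 h point), and grey shows the range and median of the other inhibitors. At Nr4a1 the 4 inhibitors lie between 118 and 259 at 30 min, below DMSO, and at Il10 PH797804 stays at or under 259 after LPS.

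In the MK2 branch, 0 of the 19 MK2 and tristetraprolin genes tested passed the threshold for the p38 class after LPS, where 0.0101% of all CREs did, so the count says nothing particular about them. Their differences had a median of -0.03 against 0.10 over all CREs. Il6 reached 628 and 666 in DMSO at 2 h, 588 in Talmapimod, 626 in VX702 and 357 in PH797804. At 30 min Talmapimod gave 313 at Il6, above all other inhibitors (40 to 302) and above DMSO (117 and 106). Its fitted difference from its run over the 4 times was 0.44 ± 0.18 with adjusted p = 0.474.

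Tnf lies in a CRE of 8852 bases that also covers neighbouring genes, so its value is not that of Tnf alone. It stood at 944 and 1091 in DMSO at 30 min, and at 987, 565, 1023 and 1427 in Losmapimod, PH797804, Talmapimod and VX702. Cxcl1, a neutrophil-attracting chemokine, went the other way at 4 h: 172 in Losmapimod and 176 in PH797804, against 16 and 31 in DMSO, 52 in Talmapimod and 50 in VX702. The range of the other inhibitors at 4 h was 33 to 144, so both lay above it. Both 4 h libraries are among those of low contrast (4.37 and 3.37); the part of contrast in this difference was not tested. Il12b, encoding the shared subunit of IL-12 and IL-23, stood likewise at 246 in Losmapimod at 4 h, against 32 and 28 in DMSO and 26 to 145 in the others.

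At Zfp36 itself (CRE chr7:28371668-28384566) PH797804 gave 1365, 2111, 2328 and 1057 over the 4 LPS times, against 3376 to 3856 in DMSO. Its difference from its run was -1.23 ± 0.13 (adjusted p = 2.11e-14), and -1.64 after quantile normalization (adjusted p = 2.71e-08). Without the low-contrast libraries it was -0.81 ± 0.23, from the 1 h library alone, which is too little to judge the call. VX702, of the same run, gave 3734, 4253 and 4688 at 30 min, 2 h and 4 h, but 2132 and 1959 in its low-contrast 1 h libraries. The CREs of the target kinases did not differ as a class after LPS: Mapk14 by -0.06 ± 0.10 (adjusted p = 0.702) and Mapkapk2 by -0.17 ± 0.10 (adjusted p = 0.256). None of the 11 p38 and upstream kinase genes, the 18 substrate genes or the 7 phosphatase genes tested passed the class test after LPS, against 0.0101% of all CREs.

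Across all CREs the class test after LPS, 4 compounds against 54 with run as a term, called 6 of 59167 CREs, or 0.0101%. Of these 1 was higher, an intergenic CRE 95942 bases from the start of Kif2a, by 1.17 ± 0.22 (adjusted p = 0.0168). It is nearly unmarked in DMSO, at 1 to 17 scaled counts, and its high values came from PH797804 at 2 h (156) and 4 h (135), Losmapimod at 4 h (148) and VX702 at 1 h (104 and 140), all of them low-contrast libraries. The other 5 were lower: an intron of the Argonaute gene Ago3 (-0.80 ± 0.15), exonic CREs named by Calml4 (-0.68 ± 0.13) and Glb1l (-0.62 ± 0.13), a site between genes near Lilr4b (-0.49 ± 0.10) and the promoter of Ipo7, an importin gene (-0.43 ± 0.09), with adjusted p between 0.0168 and 0.0484. At Ago3 the 4 h library of Losmapimod was at 0 and the 30 min library of PH797804 at 24, against 57 to 228 in the other inhibitors at 30 min. At Ipo7 each of the 4 inhibitors lay below its run, by -0.37 for Losmapimod, -0.76 for PH797804, -0.29 for Talmapimod and -0.32 for VX702. At Lilr4b and Glb1l Talmapimod was not lower (0.08 and 0.09), and the 30 min library of PH797804 was at 0 at Glb1l and Calml4. With the low-contrast libraries left out, or with contrast as a covariate, the class test called 0 CREs; after quantile normalization it called 389, 91 higher and 298 lower, with these 6 among them.

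Over the IL-4 times the class test called 0 of 59155 CREs (0%), with 2094 at an unadjusted p under 0.05 by limma. The smallest unadjusted p-values belonged to CREs near Fgf18 (0.71 ± 0.20), at Acads (0.36 ± 0.10) and in Ahcyl2 (0.44 ± 0.13) on the higher side, and near B9d2 (-0.29 ± 0.07), Susd6 (-0.33 ± 0.09) and Ptger2 (-0.37 ± 0.10) on the lower, each with adjusted p = 0.998. A direct test of whether the class difference varied between LPS and IL-4 called 0 of 59148 (0%), with 6337 at an unadjusted p under 0.05.

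By time, the class test called 1294 CREs at 30 min of LPS (2.19%), of which 1290 were lower, 0 at 1 h (0%; 6209 at an unadjusted p under 0.05 by limma), 0 at 2 h (0%; 3715) and 69 at 4 h (0.117%), of which 66 were lower. Il4ra, the IL-4 receptor chain, was among the 69, at 308 in Losmapimod, 249 in PH797804, 626 in Talmapimod and 1158 in VX702, against 925 and 920 in DMSO (class difference -0.80 ± 0.19, adjusted p = 0.0471). Here 2 inhibitors were low and VX702 was above DMSO. At 30 min the only low-contrast library is that of PH797804 with 1.73e+05 reads, and without it 0 CREs were called. Without the low-contrast libraries of Losmapimod and PH797804 at 4 h, 1 CRE was called at that time. After IL-4 the counts were 0 at 30 min, 1 h, 2 h and 4 h alike, with 2595, 3097, 1085 and 1460 at an unadjusted p under 0.05.

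Taken singly, the 4 inhibitors differed in how many CREs set them apart. Against DMSO after LPS, a CRE was called where the adjusted p was under 0.05 and the log2 difference over 0.5 in size. The share was 51.7% for Losmapimod, 57.6% for PH797804, 4.74% for Talmapimod and 28.3% for VX702. After IL-4 it was 39.1%, 54.7%, 42.3% and 1.4%. Most called CREs were higher, for example 26850 of 30598 for Losmapimod after LPS. Quantile normalization changed the splits, and turned all but that of Talmapimod after LPS: after LPS 1698 were higher and 2543 lower for Losmapimod, 5903 and 7557 for PH797804, 24 and 9 for Talmapimod, and 247 and 346 for VX702. After IL-4 the splits were 413 and 836, 2352 and 2925, 790 and 1409, and 44 and 56 in the same order.

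These differences ran with the level of the CRE. In the weakest of 5 equal groups of CREs by DMSO level, the median log2 difference from DMSO after LPS was 1.92 for Losmapimod, 1.98 for PH797804, 0.91 for Talmapimod and 1.22 for VX702, and in the strongest it was -0.34, -0.59, -0.14 and -0.17. The DMSO libraries that set these groups are also the reference of the difference, and the part of this in the trend was not tested. The median contrast was 75.1 in DMSO, 17.7 in the other inhibitors and 14.0 in the p38 libraries, with ranges that met at their ends, so compound, run and contrast cannot be told apart in the comparison with DMSO. Without the low-contrast libraries, of which 2 are those of VX702 at 1 h, VX702 differed from DMSO after LPS at 42 CREs in place of 16747.

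**Figure D3:**
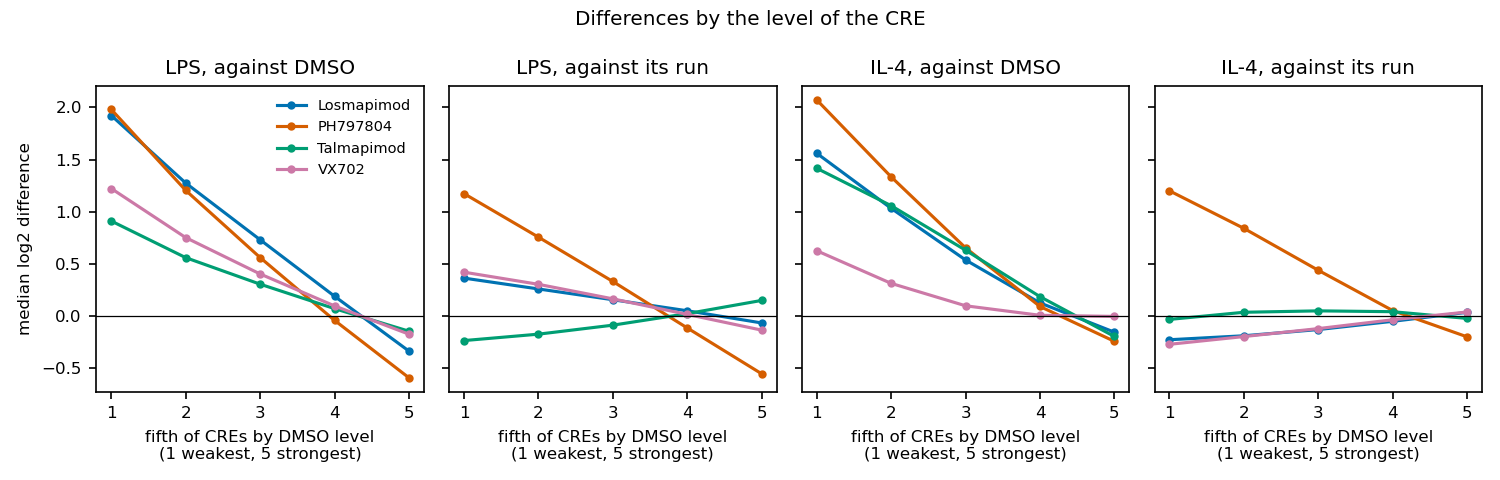
Median log2 difference (y axis) in 5 groups of CREs from the weakest to the strongest in DMSO (x axis), for each inhibitor against DMSO and against its run. The DMSO libraries that set the groups are also the reference in the comparison with DMSO. Against DMSO the lines fall from above 0 in the weakest group to below 0 in the strongest; against its run PH797804 still falls, from 1.17 to -0.55 after LPS, while the other 3 stay within 0.42 of 0.

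Against the other inhibitors of its own run, VX702 differed at 0 CREs after LPS (0%; 5390 at an unadjusted p under 0.05 by limma) and at 0 after IL-4 (0%; 529). Losmapimod differed at 8 CREs after LPS (0.0135%), all lower, and at 0 after IL-4 (0%; 2529). The largest of the 8 were in an intron of Spdef (-1.78 ± 0.30, adjusted p = 5.93e-04) and of Ago3 (-1.58 ± 0.29, adjusted p = 0.00271). At both the 4 h library was at 0, while DMSO held 63 and 51 at Spdef and 113 and 104 at Ago3. Without the low-contrast libraries, this one among them, 0 CREs were called.

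PH797804 differed from its run at 27251 CREs after LPS (46.1%), 17954 higher and 9297 lower, and at 22543 after IL-4 (38.1%), of which 21370 were higher. After quantile normalization the counts were 5589 higher and 7355 lower after LPS, and 1291 and 1881 after IL-4, and the median over all CREs moved from 0.25 to -0.02 after LPS and from 0.41 to -0.01 after IL-4. Its differences at called CREs were largest in an intron of Slc16a14 (3.07 ± 0.65) and at a CRE 96.8% soft-masked as repeat near Alkbh8 (2.87 ± 0.50) on the higher side after LPS, and in an intron of Mid1 (-5.60 ± 1.23) and at the promoter of Srp54b (-3.76 ± 0.69) on the lower. At Srp54b all 4 LPS libraries of PH797804 were at 0, but so were both VX702 libraries at 1 h, and other inhibitors ranged from 0 to 156 at 30 min. After IL-4 they were largest near 4930467E23Rik (2.92 ± 0.77) and Gpm6a (2.73 ± 0.81), and at Ermard (-3.63, adjusted p = 0.00569) and Mid1 (-3.05 ± 1.01). With the low-contrast libraries left out, PH797804 kept 1 library after LPS, at 1 h, which is too few to judge the 27251 calls. The median over all CREs was then 0.22, and that library had a contrast of 10.3, against a run median of 38.4. After IL-4 the count was 12283, of which 11731 were shared with the main fit. The IL-4 libraries kept, at 30 min, 2 h and 4 h, had contrasts of 10.6, 11.2 and 10.7. Run medians at those times were 29.1, 31.5 and 49.7, and the part of contrast in these calls was not tested.

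In PH797804 most promoter lists leaned lower after LPS. There 16 of 16 NF-kB target genes and 15 of 15 interferon response genes tested were lower than in its run, against 15.7% of all CREs, with medians of -0.95 and -1.02 against 0.25. The macrophage markers moved with them, 7 of 10 lower with a median of -0.64, as did 6 of 11 p38 and upstream kinase genes and 4 of 7 phosphatase genes. Of the MSK and CREB targets 10 of 18 were lower, as were 9 of 19 MK2 and tristetraprolin genes, of which 2, among them Cxcl1 (0.69 ± 0.22, adjusted p = 0.00653), were higher. Nfkbia, the gene of the NF-kB inhibitor IkBα, gave 471, 1075, 1167 and 1130 over the 4 times, against 962 to 2442 in DMSO; its difference was -0.81 ± 0.12 (adjusted p = 2.4e-08). Rsad2, which encodes the antiviral protein viperin, gave 94, 152, 117 and 145, and Ifnb1, the gene of interferon β, 47, 296, 305 and 83. After IL-4, 10 of the 19 MK2 and tristetraprolin genes were higher, against 36.1% of all CREs. The count was 3 of 19 after quantile normalization, against 2.18%, and 3 of 19 without the low-contrast library, against 18.6%.

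Strong and weak CREs moved in opposite directions in PH797804, and these counts changed with the scaling. After quantile normalization 0 of 16 NF-kB genes and 9 of 15 interferon genes were lower, against 12.4% of all CREs. The 9 were Ifnb1, Ifit1, Ifit2, Ifit3, Isg15, Irf7, Stat2, Usp18 and Cmpk2, from -0.66 at Irf7 and Cmpk2 to -1.44 at Ifit3. At Nfkbia the difference was then -0.06 (adjusted p = 0.618). Without the 3 low-contrast LPS libraries, 0 of 16 and 0 of 15 were lower, with medians of -0.48 and -0.43 against 0.22 over all CREs; those values rest on 1 library. Of the other lists, after quantile normalization 4 of 18 MSK and CREB targets and 4 of 19 MK2 and tristetraprolin genes were lower, with 1 higher in each. Lower were also 2 of 11 p38 and upstream kinase genes, 2 of 7 phosphatase genes and 2 of 10 macrophage markers, against the same 12.4%. Ptgs2, the gene of the inducible cyclooxygenase, gave 47, 118, 123 and 155 in PH797804 over the 4 times, against 155 to 300 in DMSO. It differed by -0.81 ± 0.18 (adjusted p = 1.13e-04) and by -0.84 after quantile normalization (adjusted p = 7.77e-04), and by -0.47 without those libraries (adjusted p = 0.584).

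After LPS Talmapimod differed from its run at 9 CREs (0.0152%), of which 8 were lower, and the higher one was at Cebpd. This gene encodes C/EBPδ, a transcription factor that LPS induces and that amplifies Toll-like receptor 4 responses. Its CRE (chr16:15885944-15891545) stood at 595, 1173, 1347 and 894 in Talmapimod at 30 min, 1 h, 2 h and 4 h.

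In DMSO the Cebpd CRE held 388 and 357, then 659 and 799, then 1003 and 940, and 979 and 960 at 4 h. The other inhibitors had maxima of 571, 889 and 1081 at the first 3 times, so Talmapimod lay above all of them and above DMSO. At 4 h it fell back into their range of 437 to 1126. Losmapimod gave 358, 606 and 517, PH797804 188, 579, 674 and 684, and VX702 342, 519, 585, 869 and 978, none of them above the higher DMSO library at the same time. Across the lists of LPS genes Talmapimod had medians of 0.43 for interferon response, 0.24 for NF-kB and 0.26 for MK2 and tristetraprolin genes, against -0.04 over all CREs, with 0 members called. Its median against its run rose with the level of the CRE, from -0.23 in the weakest of 5 equal groups by DMSO level to 0.15 in the strongest.

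The difference of Talmapimod from its run at Cebpd was 0.73 ± 0.14 (adjusted p = 0.0118). It was 0.56 after quantile normalization, still called, and between 0.61 and 0.92 with each of its libraries left out in turn. It lost the call without the 1 h library (adjusted p = 0.176) or the 2 h library (adjusted p = 0.134). Contrast in these 4 libraries was 22.7, 18.7, 20.2 and 20.4, against run medians of 13.2, 17.9, 18.2 and 20.6, and at 30 min it was above every other inhibitor of the run (up to 16.8). Among the 8 lower CREs the largest differences were in an exon near Acat1 (-1.85 ± 0.39), where Talmapimod held 4, 8, 0 and 16 and DMSO 2 to 11, and far from the start of Tshz1 (-1.38 ± 0.26). At Acat1 the run medians of 26 to 38 were thus above both, so Talmapimod was low against its run and not against DMSO.

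After IL-4 Talmapimod differed from its run at 115 CREs (0.194%), 106 lower and 9 higher. Of the 106, 19 lay at promoters, 14 in exons, 32 in introns and 41 between genes, and the median difference was -0.92. The largest differences were near Dtwd2 (-2.33 ± 0.57) and at Tbx10 (-1.95 ± 0.36) on the lower side, and near Lcn4 (1.24 ± 0.30) and at the promoter of Rabgap1l (1.06 ± 0.26) on the higher. Tbx10 held 6, 0 and 11 in Talmapimod, near the 5 to 16 of DMSO, with run medians of 30 to 40. At Rabgap1l Talmapimod gave 156, 133 and 57, against 33 to 75 in DMSO at those times, so the first 2 times were high and the 2 h value was not.

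Among the 19 IL-4 response genes tested, 1 was called in Talmapimod, against 0.194% of all CREs: Myc, a growth regulator that IL-4 induces. Its CRE (chr15:61982644-61990162) held 525, 398 and 297 at 30 min, 1 h and 2 h. DMSO held 1237 and 1110, 1204 and 1135, and 911 and 1007 at those times, and medians of the run were 794.5, 626 and 516.5. Talmapimod lay below DMSO at all 3 times, and at 2 h, with 297, it lay near the lowest of all other inhibitors (292). Unstimulated, it held 512, against 581 and 669 in DMSO and a run median of 593, close to its 30 min value; that UT library is the one with a contrast of 7.02.

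The fitted difference at Myc was -0.72 ± 0.17 (adjusted p = 0.0277). It was -0.66 after quantile normalization (adjusted p = 0.0567), and with each of the 3 libraries left out it was between -0.66 and -0.78 with adjusted p of 0.0909 to 0.199. The Myc levels of the other p38 inhibitors, which were not tested against Talmapimod, are given beside it: VX702 gave 1033, 1003, 903 and 668, PH797804 1064, 783, 672 and 558, and Losmapimod 1163, 449 and 962 at 30 min, 1 h and 4 h. PH797804 was also below both DMSO libraries at 30 min, 1 h and 2 h. The 1 h value of Losmapimod is below its run median of 521, and its 4 h value is above the whole range of the other inhibitors (216 to 916).

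The central IL-4 targets stood higher after IL-4 than in UT cells with all 4 inhibitors. Arg1, the arginine-degrading enzyme of alternatively activated macrophages, went from 123 and 141 in unstimulated DMSO to 692 and 604 at 30 min. The p38 libraries went from 82 to 151 unstimulated to 336 in Losmapimod, 529 in PH797804, 404 in Talmapimod and 519 in VX702. All 4 were below DMSO, as were all other inhibitors at that time (226 to 586 against 604 and 692). The class difference at Arg1 was -0.16 ± 0.08 with adjusted p = 0.998.

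Socs1, a feedback inhibitor of JAK kinases, reached 1411, 1338 and 1329 in VX702 at 30 min, 1 h and 2 h, against 1160 to 1348 in DMSO, and 668 to 949 in Losmapimod, PH797804 and Talmapimod at those times. Cish, another feedback inhibitor, reached 318 to 428 in VX702 and 260 to 300 in PH797804 from 1 h on, against 395 to 441 in DMSO. None of Socs1, Cish and Ccl24 passed the class test after IL-4 (each adjusted p = 0.998), with differences of -0.07 ± 0.07, -0.09 ± 0.08 and -0.15 ± 0.09.

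**Figure D4:**
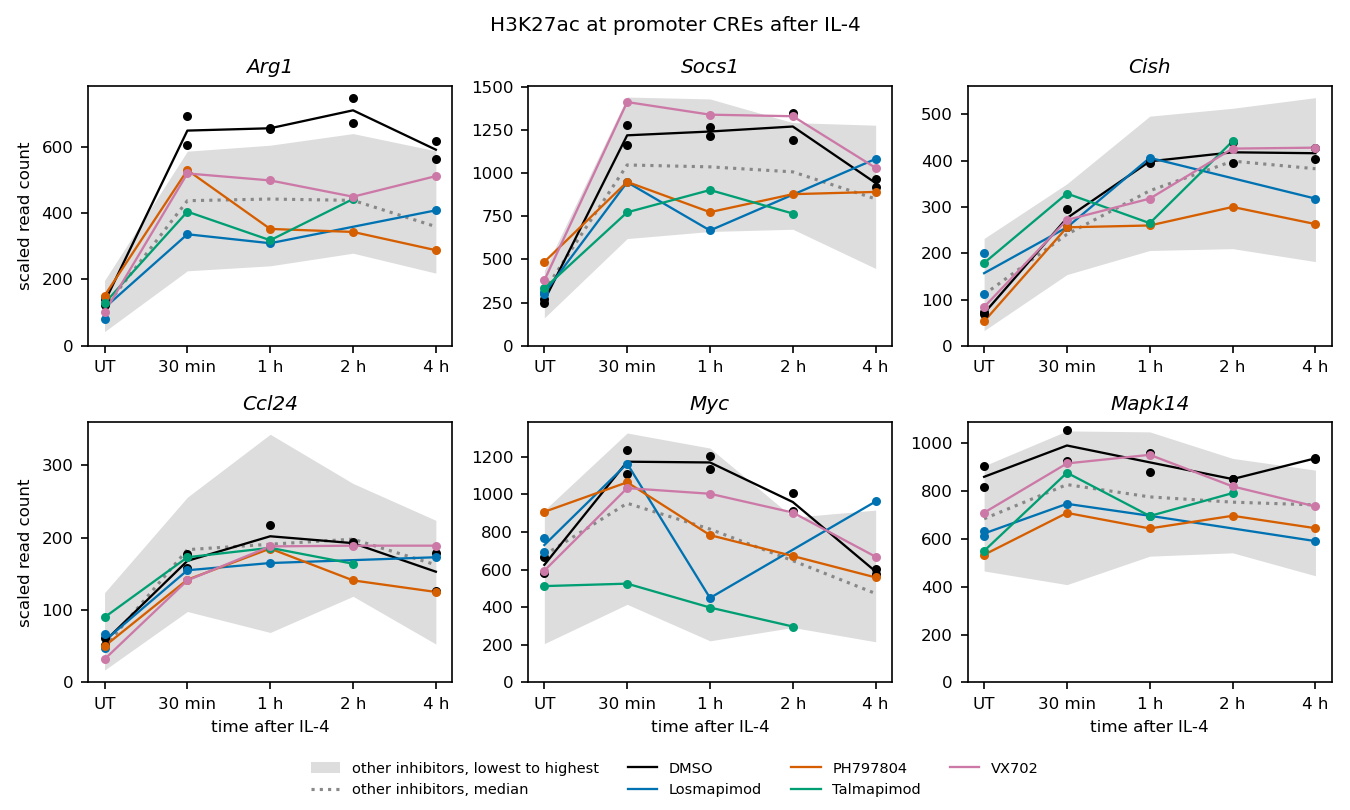
Scaled read counts at 6 promoter CREs in unstimulated cells and over the IL-4 time course, drawn as in the LPS plot (Losmapimod has no 2 h point and Talmapimod no 4 h point). Myc stays between 297 and 525 in stimulated Talmapimod cells, below DMSO, while Arg1, Socs1, Cish and Ccl24 stand higher after IL-4 than in UT cells with all 4 inhibitors.

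In unstimulated cells the class test called 339 of 59086 CREs (0.574%), 247 higher and 92 lower; after quantile normalization it called 435, 76 higher and 359 lower. The 10 higher CREs with the smallest adjusted p were near or in Arid2, Il31ra, Psd3, Cblb, Lrig2, Strap, Gm21838, Eci2, Tubgcp3 and Parp11, with differences of 1.01 to 1.86. They are weak CREs: Il31ra held 3 and 0 in DMSO, 104 and 48 in Losmapimod, 83 in PH797804, 281 in Talmapimod and 39 in VX702. Talmapimod was farthest above its run in each of the 10, and its single UT library had a contrast of 7.02, below every other UT library of its run (12.5 to 27.6). At Cblb, an E3 ubiquitin ligase gene, DMSO held 16 and 18, and the p38 libraries 104, 43, 42, 115 and 63.

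The 10 lower CREs were near or at Dhx40, Abcc3, Emp1, Zfp36l2, Tmem65, Ctsd, Tekt3, Slc9a7, Tmem185a and Prss22, from -0.32 to -1.36. Slc9a7 and Tmem185a were at 0 in Talmapimod alone, while Losmapimod, PH797804 and VX702 held 84 to 119 at Slc9a7 and DMSO 101 and 115. Dhx40 showed the smallest adjusted p (-1.33 ± 0.20, adjusted p = 1.18e-04), with 7 and 126 in the 2 Losmapimod libraries, 113 in PH797804, 38 in Talmapimod and 64 in VX702, against 207 and 218 in DMSO. Its CRE is 97.4% soft-masked as repeat, where reads may map to more than 1 place, against a median of 18.9% over all CREs. Abcc3, an organic anion transporter gene, held 268 and 335, 276, 166 and 329, against 455 and 496 in DMSO and 284 to 503 in the other inhibitors. Without Talmapimod, or with contrast as a covariate, the class test called 1 CRE. Cd68, a macrophage marker, was called at -0.26 ± 0.07 (adjusted p = 0.0496), and was not called in 7 of 9 alternative settings.

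How strongly each inhibitor let the stimulus act was also read within the inhibitor, as the log2 difference of stimulated cells from their own UT cells. This was taken over CREs that rose in DMSO, 14680 after LPS and 6415 after IL-4, each at the time where DMSO changed most. DMSO itself defined these sets, so its own rise, of 1.64, 1.86, 2.09 and 2.07 at the 4 LPS times, is not comparable with the rest. VX702 rose by 1.32, 1.43, 1.63 and 1.55 and lay inside its run at every LPS time. Losmapimod rose by 0.79 at 30 min and 1 h and by 1.13 at 4 h, also inside its run.

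Talmapimod gave 0.33, -0.14, 0.38 and 0.32, below every other inhibitor of its run at each LPS time (lowest 0.56, 0.65, 1.15 and 1.02), and 0.25, 0.25 and 0.32 after IL-4, again below all run mates. Its UT library enters every one of these differences and is the one with a contrast of 7.02; its part in them was not tested. In the fits, where Talmapimod cells were compared with other inhibitors at the same time, 1 of the 14680 LPS-induced CREs was lower and 0 were higher, with a median of 0.01. PH797804 gave -0.08 at 30 min, from the library of 1.73e+05 reads, and 0.90, 1.31 and 1.33 at the later times, against run medians of 1.36, 1.82 and 1.70.

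**Figure D5:**
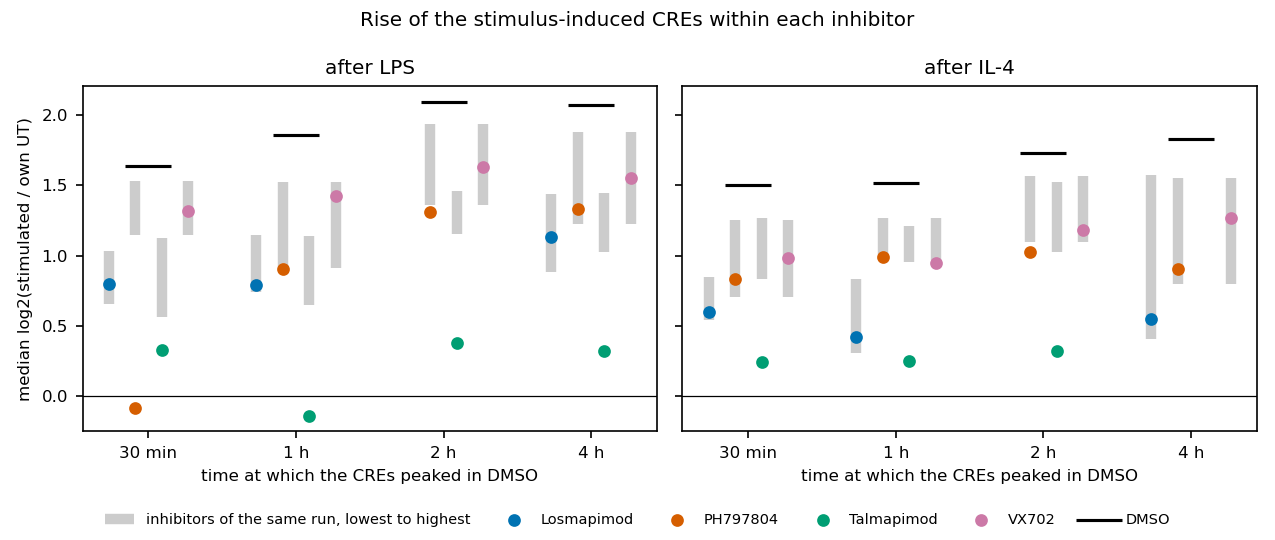
Median log2 difference of stimulated from the same inhibitor's UT cells (y axis) over CREs induced in DMSO, grouped by the time of their largest change (x axis). Coloured points are the p38 inhibitors, grey bars the range of the other inhibitors of the same run and black dashes DMSO; Talmapimod lies below its run at all LPS and IL-4 times shown.

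The CREs that lose acetylation were read in the same way. Of the CREs that fell in DMSO after LPS, 2429 had their largest change at 4 h. These changed at 4 h by a median of -1.67 in DMSO, -1.57 in Talmapimod, -1.40 in VX702, -0.37 in Losmapimod and 0.11 in PH797804. Losmapimod and PH797804 lay above all other inhibitors of their runs, whose medians were -1.02 and -1.32. Their 4 h libraries had contrasts of 4.37 and 3.37. For the CREs with their largest change at 30 min or 1 h, Losmapimod lay inside its run (-0.94 and -0.99). PH797804 lay below its run at 30 min (-1.65), in the library of 1.73e+05 reads, and above it at 1 h and 2 h (-0.75 and -0.58). Its 2 h library had a contrast of 4.81. VX702 also lay above its run at 1 h (-0.61), in its low-contrast libraries, and not at 30 min, 2 h or 4 h (-1.12, -1.60 and -1.40). The part of depth and contrast in these values was not tested.

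MEK and ERK inhibitors block the parallel MAPK branch, and the study held 5 of them: Selumetinib, Refametinib, Pimasertib, GDC0994 and Ulixertinib, with 46 libraries. After LPS the p38 class differed from them at 10827 CREs (18.3%), 7548 higher and 3279 lower in p38-inhibited cells. Among NF-kB target genes 12 of 16 were lower, against 5.54% of all CREs, and among interferon response genes 5 of 15. Quantile normalization left 1092 CREs, 491 higher and 601 lower (1.02% of all CREs), with 1 of 16 NF-kB and 1 of 15 interferon genes lower, and leaving out the low-contrast p38 libraries left 0. After IL-4 the comparison called 0 (0%), with 2822 at an unadjusted p under 0.05 by limma.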

How the data were processed

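H3K27ac chromatin immunoprecipitation was sequenced from 564 macrophage libraries. The deposited values are read counts that the authors rescaled and rounded, so they were taken as a score and no count model was used: they trimmed single-end reads to 51 bases, mapped them to mm10 with ShortStack, counted them around open-chromatin peaks and scaled the libraries on invariant peaks. The processing notes also name Bowtie and SAMtools. Such scaling keeps differences in contrast between libraries.

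Differences were fitted with limma 3.58.1 (R 4.3.3) on log2(value + 5) over CREs with a mean of at least 10, per stimulus (249 LPS, 240 IL-4 and 75 UT libraries), with time and compound as terms. The class test compared 58 compound coefficients with run and p38 as terms; its calls need an adjusted p under 0.05 and no minimum size. Tables were handled with pandas 2.3.3 and numpy 2.4.6. Genes were named from RefSeq starts; 27 of 29 chosen genes had a promoter CRE. CREs named were the 10 with the smallest adjusted p in each direction for the class, the 2 with the largest difference in each direction for each inhibitor against its run, called members of 13 gene lists, and the chosen genes. Members and lists were chosen with earlier results of these data known. Reads were estimated for 561 libraries from the spacing of values, which limits precision most in shallow libraries. DMSO libraries with the same number in different groups did not deviate together (r from -0.067 to 0.047 over 36 pairs). The paired libraries of VX702 and Losmapimod were not copies and entered the fits separately. Fits were tested on simulated data.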

Additional observations from a re-analysis of the deposited data

How the results depend on the processing

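Counts of CREs called, unless said otherwise, moved by over 1.5 times under these settings; the cause was not tested. With a pseudocount of 1 they were, after LPS, 33 for Losmapimod, 79 for Talmapimod and 2 for VX702 against their runs, 4683 for Talmapimod against DMSO and 85 for the class; after IL-4, 2 for Losmapimod and 226 for Talmapimod against their runs and 2031 for VX702 against DMSO; and 74 for the class in UT cells. After quantile normalization they were, against DMSO, 4241, 13460, 33 and 593 for Losmapimod, PH797804, Talmapimod and VX702 after LPS and 1249, 5277, 2199 and 100 after IL-4; against their runs, 154, 12944 and 2 for the first 3 after LPS, and 3172 for PH797804 and 1 for VX702 after IL-4; and after LPS 389 for the class and 1092 for the class against MEK and ERK inhibitors. With contrast as a covariate the class count was 0 after LPS and 1 in UT cells, and with no run term 0 and 2. With UT libraries in the fit it was 6271 after LPS, with 2 for Losmapimod and 4 for Talmapimod against their runs, 20404 for Talmapimod against DMSO, and after IL-4 320 for Talmapimod against its run and 3062 for VX702 against DMSO. Without the 30 min library of PH797804 the counts after LPS were 13 for Losmapimod and 14 for Talmapimod against their runs and 2 for the class.

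Chosen after seeing the data, the setting without the low-contrast libraries gave, after LPS, 14937, 4287, 4900 and 42 for Losmapimod, PH797804, Talmapimod and VX702 against DMSO, 0, 8 and 27 for the first 3 against their runs, 0 for the class, 0 for the class against MEK and ERK inhibitors, 0 at 30 min and 1 at 4 h, and 12283 for PH797804 against its run after IL-4. The PH797804 counts after LPS in that setting rest on 1 library. With libraries as the unit the class count after LPS was 1705. Leaving out each p38 inhibitor moved the class count between 0 (without PH797804) and 16522 (without Talmapimod) after LPS, and between 1 (without Talmapimod) and 5606 (without VX702) in UT cells; it stayed 0 after IL-4. Leaving out each Talmapimod library gave 1 to 70 CREs against its run after LPS and 17 to 449 after IL-4. Without DMSO replicate 1 or 2, Talmapimod differed from DMSO at 119 to 161 CREs and VX702 at 7120 to 8876 after LPS, and VX702 at 91 to 236 after IL-4.

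With the DMSO replicate number as a block (the replicate block), counts against DMSO were 30545, 34063, 2740 and 16664 for Losmapimod, PH797804, Talmapimod and VX702 after LPS and 23081, 32352, 24914 and 806 after IL-4, all within 1.5 times. The numbers are shared without pairing the libraries. Of the single CREs tested under these settings, 324 values kept their side of the threshold and 141 lost the call. Estimates that lost the call could also change sign. At Mapkapk2, PH797804 differed from its run after LPS by -0.60, and by 0.18 after quantile normalization.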
